A study of Rattus norvegicus with 18 samples.

Results

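The H3K4me3 peaks described here were those that stood alone in the genome of primary rat Schwann cells. Of 16364 merged peaks, 718 (4.39%) met the rule, which asked for a position on chromosomes 1 to 20, a width of 700 to 2499 bp and a gap of more than 200000 bp to the nearest other peak on the same chromosome. The rule used positions only and no read count. These 718 isolated peaks made up 6.15% of the 11672 peaks of that width on those chromosomes. The other 10954, each with a peak within 200 kb, are called neighboured peaks below.

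Schwann cells are the glia that ensheathe the axons of peripheral nerves, and the study's methods take them from the sciatic nerve of Fisher rats. Control cells were untreated. The other cells received a cell-permeable cAMP analog for 30 min, followed by washout of 30 min or of 3 h 30 min (3.5 h in the labels), for which the labels state 100 μM in one place but 50 μM elsewhere. Each condition had 3 H3K4me3 ChIP libraries with 3 genomic input libraries, for 18 libraries in all. Nothing in the labels ties the replicates to separate cultures, so p-values measure the spread between these libraries, which may be technical.

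H3K4me3 is the trimethyl mark on lysine 4 of histone H3. It is laid down by SET1/MLL methyltransferases, removed by KDM5 demethylases and found mainly at the start sites of active or poised genes, above all at CpG islands. Genes in gene-poor stretches of a mammalian genome can have no other promoter for long distances. A peak with no close neighbour can be such a promoter, or a start site of a noncoding RNA. No gene annotation of the build of the files, Rnor_6.0, was used here, so the peaks are given by position, with 1 exception.

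The ChIP libraries held between 13762905 and 17160987 reads in peaks, of which 467399 to 584458 lay in isolated peaks. A median of 547 to 706 reads covered an isolated peak in each library. Reads outside peaks were 17.0% to 20.3% of a control library, 20.9% to 24.9% at 30 min and 11.5% to 20.9% at 3 h 30 min, and 3 h 30 min replicate 1 was the highest of its condition. Over the isolated peaks, pairs of libraries of a condition differed with a chi-square per degree of freedom of 0.657 to 0.999 in control, 0.962 to 2.39 at 30 min and 1.84 to 3.54 at 3 h 30 min. At 30 min the pairs with replicate 3 gave 2.39 and 1.94. Independent sampling alone gives a value near 1. Control libraries 1 and 2 differed by less than that, with 0.657 over isolated and 0.664 over all peaks. The other control pairs gave 0.882 and 0.999 over isolated peaks. The reason was not tested, and p-values against control may be too small if control libraries 1 and 2 are not independent. These libraries were kept as separate replicates because their counts were not identical.

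The isolated peaks had a median width of 1445 bp, against 1478 bp for neighboured peaks. The gap to the nearest peak ran from 200054 to 3981420 bp with a median of 342983 bp. It was 200 to 300 kb for 274 peaks, 300 to 500 kb for 240, 0.5 to 1 Mb for 152 and over 1 Mb for 52. On the farther side the median gap was 771260 bp. Of the 718 peaks, 349 had another isolated peak as the next peak on at least 1 side, and up to 6 followed each other with no other peak between them.

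Isolated peaks were spread unevenly over the chromosomes. Chromosome 2 held most of them, with 89 peaks or 11.2% of its mid-width peaks, followed by chromosome 1 with 69 and chromosome 4 with 68. Chromosome 12 held 4 (0.993%) and chromosome 20 held 6 (1.98%). Chromosome 10, with 959 mid-width peaks, held 24 isolated ones (2.50%).

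The gene at an isolated peak could be named for Peak_948 (chr2:261402118-261403568 in Rnor_6.0), 516876 bp from the nearest other peak. Among 31 genes that the study tabulated with H3K4me3 values and that were matched to 29 peaks by those values, Fpgt and Lrriq3 were the genes at an isolated peak, and both fell on Peak_948. Fpgt encodes fucose-1-phosphate guanylyltransferase, which makes GDP-fucose in the salvage pathway, and Lrriq3 encodes a protein with leucine-rich repeats and an IQ motif. The pair lies head to head, with 134 bases between the start sites in RefSeq on GRCr8. The 250 bases before the start of Fpgt were searched for the site of the cAMP-responsive factor CREB, the CRE. The 30 bases around the hit lie between both start sites and are shown on the strand of Fpgt (minus), 5′ to 3′, with the CRE half-site TGACG in capitals:

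Fpgt: ccagagccgcagTGACGtggcatgcacagc

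The search covered both strands (TGACG and CGTCA) and found the half-site 1 time, at base 193 of the window. The full site TGACGTCA was found 0 times. Over the windows of the same length before 33469 rat genes, 18.2% held the half-site and 1.59% the full site, so the half-site is a common string. The Fpgt window held 27 CpG dinucleotides against a median of 5 over all windows, and its GC content was 67.6% against a median of 51.2%.

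In control cells, the median H3K4me3 level of isolated peaks was below that of neighboured peaks. The level is given as RCPM, reads scaled to 1000000 reads in peaks and per kb of peak. RCPM is relative to the other peaks of a library and cannot show a gain or loss shared by all peaks. The fold changes between conditions below have the same limit. The mean control RCPM of an isolated peak ran from 2.67 to 88.7 with a median of 27.9, and the median was 32.7 for neighboured peaks. Of the isolated peaks, 30.5% lay in the lowest quartile of all mid-width peaks and 21.7% in the highest. A level under 10 RCPM was found for 129 isolated peaks and one over 50 RCPM for 103. No test was made over peaks, which share their libraries.

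**Figure D1:**
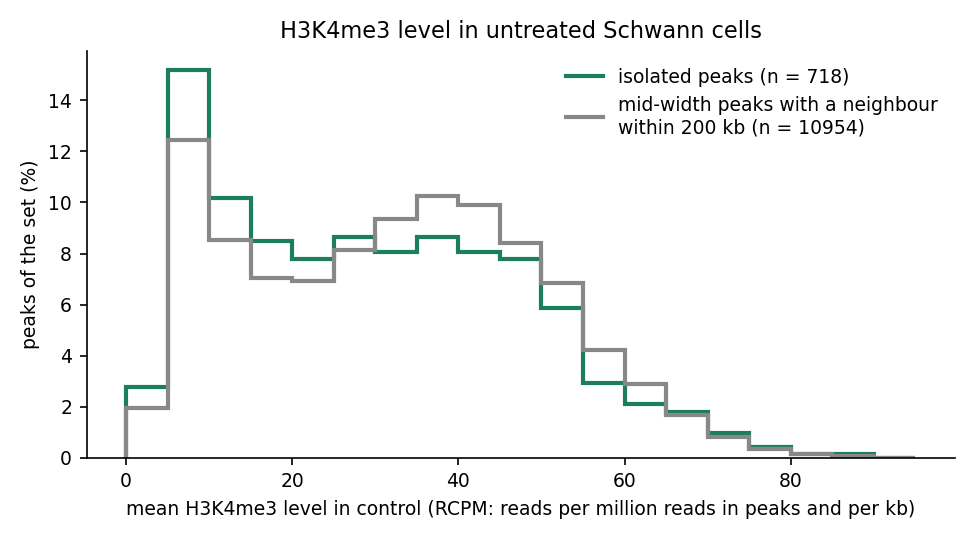
Distribution of the mean H3K4me3 level in control over 718 isolated peaks (green) and 10954 neighboured peaks (grey). The x axis gives RCPM in classes of 5 and the y axis the percent of each set; isolated peaks take a larger share below 30 RCPM and a smaller one between 30 and 65 RCPM.

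The highest were Peak_12071 (chr4:83136342-83138123) with 88.7 RCPM, Peak_8412 (chr11:24640015-24642336) with 80.9 RCPM and Peak_13577 (chr7:79470449-79472855) with 78.1 RCPM. The lowest were Peak_14114 (chr8:84624985-84625817) with 2.67 RCPM, Peak_3870 (chr15:95511909-95514151) with 3.05 RCPM and Peak_8136 (chr10:70747712-70748867) with 3.90 RCPM. The read count of Peak_12071 came to 64.7% of its possible start positions, with each base counted on both strands, on average over the ChIP libraries. The median over isolated peaks was 21.6%. Where the reads started was not available. At Peak_12071 duplicate removal by the authors can have lowered the count.

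The level of isolated peaks went with their width. The median control RCPM was 10.5 for the 145 peaks of 700 to 1000 bp and 38.0 for the 128 peaks of 2000 to 2500 bp. Spearman's rho between level and width was 0.42 over 718 isolated peaks and 0.42 over 10954 neighboured peaks. The gap itself went with the level hardly at all among isolated peaks, with a rho of -0.06, against 0.16 among neighboured peaks. These values are descriptions, since the peaks share libraries and depth.

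Among the 718, the peaks farthest from any other showed no common level. Peak_4078 (chr16:90613719-90614517), which had the largest gap of them at 3981420 bp, had levels of 39.6 RCPM (control), 37.7 RCPM (30 min) and 39.2 RCPM (3 h 30 min). Peak_753 (chr2:74188787-74189777), with a gap of 3440362 bp, had 4.47, 5.32 and 3.79 RCPM. Peak_6503 (chr6:83081839-83082639), with a gap of 2746380 bp, had 10.1, 13.4 and 13.3 RCPM. The first of these thus had more H3K4me3 than the median isolated peak, and the other two had less.

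The values on both sides of the gap limit overlapped. Just inside it, Peak_15997 (gap 200054 bp) had a control level of 6.77 RCPM and Peak_765 (gap 200186 bp) had 24.5 RCPM. Just outside it, Peak_5442 (gap 199758 bp) had 5.37 RCPM and Peak_11520 (gap 199714 bp) had 44.1 RCPM.

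Nearly all isolated peaks stood well above the input. Over the pooled libraries, scaled to all reads, the fold of ChIP over input was 3.46 to 76.5 with a median of 28.1, and 716 of 718 peaks reached 4-fold. Over the isolated peaks as a set, this fold was between 19.5 and 76.0 in the 9 pairs of ChIP and input libraries. The lowest folds belonged to replicate 3 of control and of 30 min. In their input libraries 97.1% and 96.5% of reads lay outside peaks, against 97.7% to 98.9% in the other input libraries. These libraries were also the deepest, with 25880 and 31879 input reads in isolated peaks against 1001 to 6918 in the others. They therefore weigh most in the pooled folds. As peaks are called for their enrichment, this fold is a description.

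The share of the reads in peaks that isolated peaks held was highest at 3 h 30 min. The share was 3.40%, 3.40% and 3.43% in the control libraries, 3.41%, 3.43% and 3.49% at 30 min, and 3.46%, 3.56% and 3.53% at 3 h 30 min. The 3 libraries of 3 h 30 min all lay above the control libraries, whereas those of 30 min overlapped with both. The mean was 3.41% ± 0.0185 in control, 3.44% ± 0.0463 for the 30 min libraries and 3.52% ± 0.0544 for those of 3 h 30 min (SD, n = 3 each). The two-sided exact permutation test gave p = 0.3 for 30 min against control, p = 0.1 for 3 h 30 min against control and p = 0.2 between the washout times. The smallest value that 3 against 3 libraries allow is 0.1, and the adjusted value over these comparisons was 0.3 for each. For replicate 3 of 30 min the labels point to a second run of sequencing, and without this library the difference between 30 min and control was 0.00966 percentage points in place of 0.0356. The share of neighboured peaks was also higher at 3 h 30 min, at 57.4% ± 0.192 against 56.9% ± 0.0969 in control (SD, n = 3, p = 0.1, exact permutation test), with all libraries above control.

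The median level of the isolated peaks followed the same order. It was 27.8, 27.8 and 28.3 RCPM in the control libraries, 28.9, 29.0 and 29.9 RCPM at 30 min and 29.6, 30.1 and 29.4 RCPM at 3 h 30 min. All 6 libraries after washout lay above all 3 control libraries. Because RCPM is relative, a higher median does not show a larger amount of H3K4me3 in the cells. The mean of these medians was 28.0 ± 0.292 in control, 29.2 ± 0.535 at 30 min and 29.7 ± 0.357 RCPM at 3 h 30 min (SD, n = 3), with p = 0.1 against control for both times and p = 0.3 between them (exact permutation test, adjusted 0.15, 0.15 and 0.3).

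For neighboured peaks, the mean of the medians was 32.6 RCPM (control), 33.1 RCPM (30 min) and 32.8 RCPM (3 h 30 min). All 30 min libraries lay above control here too, at 32.9 to 33.3 RCPM against 32.5 to 32.8 RCPM (p = 0.1, exact permutation test, adjusted 0.3). A rise of the median at 30 min was thus not particular to isolated peaks. The libraries of 3 h 30 min overlapped with control (p = 0.5, exact permutation test). The ratio of the isolated to the neighboured median was 0.859 ± 0.00474 in control, 0.883 ± 0.0167 at 30 min after washout and 0.906 ± 0.0125 at 3 h 30 min (SD, n = 3). Both washout times had all libraries above all control libraries, with p = 0.1 each (exact permutation test), the smallest value possible. The libraries of the washout times overlapped (p = 0.2, exact permutation test). When all reads of a library, including those outside peaks, were the library size, the 30 min difference from control turned over, to -0.492 RCPM for the median and -0.148 percentage points for the share. Reads outside peaks moved with this result, with 18.3% ± 1.76 in control, 23.5% ± 2.24 in the 30 min libraries and 15.1% ± 5.08 at 3 h 30 min (SD, n = 3), and their part in it was not tested.

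**Figure D2:**
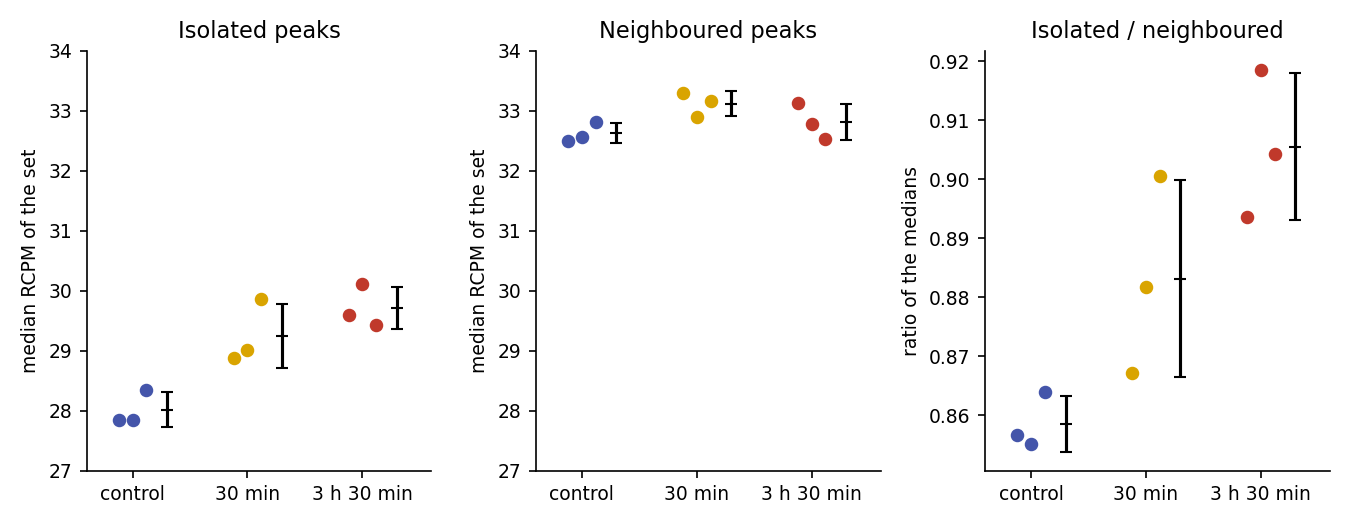
Median RCPM of isolated peaks, median RCPM of neighboured peaks and the ratio of both medians in each ChIP library (points), with mean and SD of 3 libraries (black) per condition. The y axes do not start at 0; the 6 libraries after washout lie above the 3 control libraries at isolated peaks (28.9 RCPM or more against 28.3 or less), and in the ratio.

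The 30 min change differed between levels, in neighboured as in isolated peaks. In the quartile of isolated peaks with the least H3K4me3 in control (180 peaks), the mean level was 8.13, 8.19 and 8.58 RCPM in the control libraries, 9.25, 8.92 and 10.2 RCPM at 30 min and 8.52, 9.10 and 7.86 RCPM at 3 h 30 min. In the quartile with the most (180 peaks), it was 54.0, 53.8 and 53.7 RCPM in control, 52.2, 53.3 and 52.9 RCPM at 30 min and 53.9, 55.4 and 56.7 RCPM at 3 h 30 min. The 30 min libraries all lay above control in the lowest quartile, by 13.8% of the mean, and all below control in the highest quartile, where the mean fell by 1.89%. The exact permutation test gave p = 0.1 for both, the smallest value possible (0.171 when adjusted over 12 comparisons of quartiles). The quartiles were formed on control levels, which also enter these differences, and how much of the rise and the fall comes with that choice was not tested. The median log2 fold change at 30 min was 0.19 in the lowest and -0.03 in the highest quartile of isolated peaks, and 0.18 and -0.04 in neighboured peaks within the same bounds.

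The single peaks were then compared between conditions by edgeR's quasi-likelihood test, fitted over all 16364 peaks and the 9 ChIP libraries. A peak was called at a Benjamini-Hochberg adjusted p-value under 0.05. All 718 isolated peaks had enough reads to be tested. Of them, 315 (43.9%) were called in at least 1 of the 3 comparisons, where the share over all peaks was 49.6%.

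At 30 min after washout, few isolated peaks were called. The test called 1 peak higher and 2 lower than in control, or 0.139% and 0.279%, where the calls over all peaks were 0.532% higher and 0.281% lower. At an unadjusted p under 0.05 there were 88 higher and 54 lower of 718, against 1881 higher and 1623 lower of all 16364 peaks. The median log2 fold change was 0.04 over isolated peaks and 0.02 over all peaks. Of the called isolated peaks 0 changed by more than 2-fold, against 5 called rises and 0 called falls over all peaks. The number of calls depended on libraries of the condition that was not compared. It was 40 higher and 36 lower with only the control and 30 min libraries in the fit. It became 26 higher and 18 lower without 3 h 30 min replicate 1, and 16 and 25 without 3 h 30 min replicate 3. Leaving out control replicate 1 or 2, or 30 min replicate 1 or 2, gave 0 calls in both directions. For these fits the counts over all peaks are not given. A fit with terms for input called 0 isolated peaks and 0 of all 16364. At an unadjusted p under 0.05 it gave 32 isolated peaks, against 703 of all peaks. DESeq2 called 2 isolated peaks, both lower, against 81 of all 16364 peaks. It gave no adjusted p-value for 698 of the 718.

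The peak that rose was Peak_10248 (chr18:58727096-58728884), with 355764 bp to the nearest peak. Its level, as counts on TMM-scaled library sizes of 1000000 reads (CPM), was 46.2, 44.7 and 49.1 in control, 52.9, 53.6 and 57.6 at 30 min and 59.4, 60.7 and 60.9 at 3 h 30 min. The 3 conditions did not overlap. edgeR's quasi-likelihood test gave a log2 fold change of 0.23 at 30 min (SE 0.04, adjusted p = 0.0362) and of 0.37 at 3 h 30 min (SE 0.04, adjusted p = 0.000185), both against control. The call at 30 min was lost when any single control or 30 min library was left out, or 3 h 30 min replicate 2, with adjusted p-values of 0.0546 to 0.205, with log2 fold changes between 0.19 and 0.27. It was also lost with all reads as library size, with a log2 fold change of 0.14 (edgeR adjusted p = 0.176).

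The peaks that fell at 30 min lay above the median level of isolated peaks. Peak_15671 (chr11:54403687-54405792) had 97.7, 101 and 96.1 CPM in control, 87.7, 88.5 and 88.9 CPM at 30 min and 99.4, 101 and 101 CPM at 3 h 30 min. It was below every control library at 30 min and was back within their range or just above it 3 h later. The log2 fold change was -0.15 at 30 min against control (SE 0.02, edgeR adjusted p = 0.0172) and 0.18 at 3 h 30 min against 30 min (SE 0.02, edgeR adjusted p = 0.000192). The call at 30 min was lost without control replicate 1 or 2 or 30 min replicate 1 or 2, with adjusted p-values from 0.0688 to 0.15. With all reads as library size it was lost too (-0.24, edgeR adjusted p = 0.0578), and with terms for input the log2 fold change was 0.07.

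Peak_4623 (chr2:4942489-4943612) had 50.4, 47.6 and 47.8 CPM in control, 42.2, 43.3 and 42.8 CPM at 30 min and 44.8, 42.6 and 43.5 CPM at 3 h 30 min. It was lower than in control at both times, with a log2 fold change of -0.18 at 30 min (SE 0.04, edgeR adjusted p = 0.0433) and -0.15 at 3 h 30 min (SE 0.04, edgeR adjusted p = 0.00926). The call at 30 min was lost when any control or 30 min library, or 3 h 30 min replicate 2, was left out, with adjusted p-values from 0.0709 to 0.24.

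The Fpgt and Lrriq3 peak, Peak_948, had a course like that of Peak_15671. It is described here after its values were seen, and the study chose it for its change in these libraries, so its direction is not independent evidence. It had 48.8, 51.1 and 51.4 CPM in control, 46.6, 44.2 and 43.5 CPM at 30 min and 54.3, 53.9 and 53.9 CPM at 3 h 30 min. The 3 conditions did not overlap. The log2 fold change was -0.17 at 30 min against control (SE 0.04, edgeR adjusted p = 0.0541), which missed the threshold, and 0.27 at 3 h 30 min against 30 min (SE 0.04, edgeR adjusted p = 0.000201), which passed it. Without 3 h 30 min replicate 1 or 3, the fall at 30 min passed, with adjusted p-values of 0.0141 and 0.0142. Between 3 h 30 min and control the log2 fold change was 0.10 (edgeR adjusted p = 0.064).

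At 3 h 30 min, calls in both directions were common, with more rises than falls among isolated peaks. Against control, 125 isolated peaks (17.4%) were higher and 83 (11.6%) lower, where the calls over all peaks were 13.7% higher and 17.8% lower. Neighboured peaks, which have the same width range, were closer to the isolated ones, with 15.0% higher and 15.6% lower. The median log2 fold change was 0.05 over isolated peaks and 0.00 over all peaks. Rises were small, with a median log2 fold change of 0.18 among the called peaks and 0 beyond 2-fold, whereas the median among called falls was -0.26 and 9 of them were beyond 2-fold. Over all 16364 peaks the medians were 0.18 and -0.21, with 2 called rises and 222 called falls beyond 2-fold. No test was made of the difference between these shares, because peaks are not replicates.

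The count at 3 h 30 min depended on single libraries. It was 53 higher and 49 lower without control replicate 1, 58 and 60 without control replicate 2, 61 and 48 without 3 h 30 min replicate 2, 76 and 71 without replicate 3 and 210 and 102 without replicate 1 of 3 h 30 min. With all reads as library size, the split became 163 higher and 44 lower. Counts over all peaks are not given for these fits, so the shifts are not read as particular to isolated peaks. A fit with terms for input called 0 isolated peaks, with 60 at an unadjusted p under 0.05. Over all 16364 peaks it called 0 as well, with 1489 at an unadjusted p under 0.05. The input libraries had a median of 1 to 41 reads per isolated peak, so this fit is too imprecise to decide on the calls. The input libraries alone called 0 of the 80 isolated peaks with enough input reads, and 0 of 3320 over all peaks.

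Rises and falls were found at all levels. Of the quartile of isolated peaks with the lowest control level, 14 of 180 were higher and 22 lower at 3 h 30 min than in control. In the second quartile 36 of 179 were higher and 18 lower, in the third 43 and 29, and in the highest 32 and 14. In the lowest class 10.3% of neighboured peaks were higher and 16.1% lower, against 7.78% and 12.2% of isolated peaks, and in the second class 19.9% and 15.6% against 20.1% and 10.1%. Among peaks of 700 to 1000 bp, 11 were higher and 19 lower, against 37 and 18 among peaks of 2000 to 2500 bp. In percent, these were 7.59% and 13.1% of the narrow and 28.9% and 14.1% of the wide class. Neighboured peaks were higher in 11.7% and lower in 10.8% of the narrow class, and higher in 13.6% and lower in 21.3% of the wide one. The distance to the nearest peak made little difference: the share of higher peaks was 19.3% at gaps of 200 to 300 kb, 16.3% at 300 to 500 kb, 15.8% at 0.5 to 1 Mb and 17.3% above 1 Mb, and that of lower peaks 11.2% to 11.7%.

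**Figure D3:**
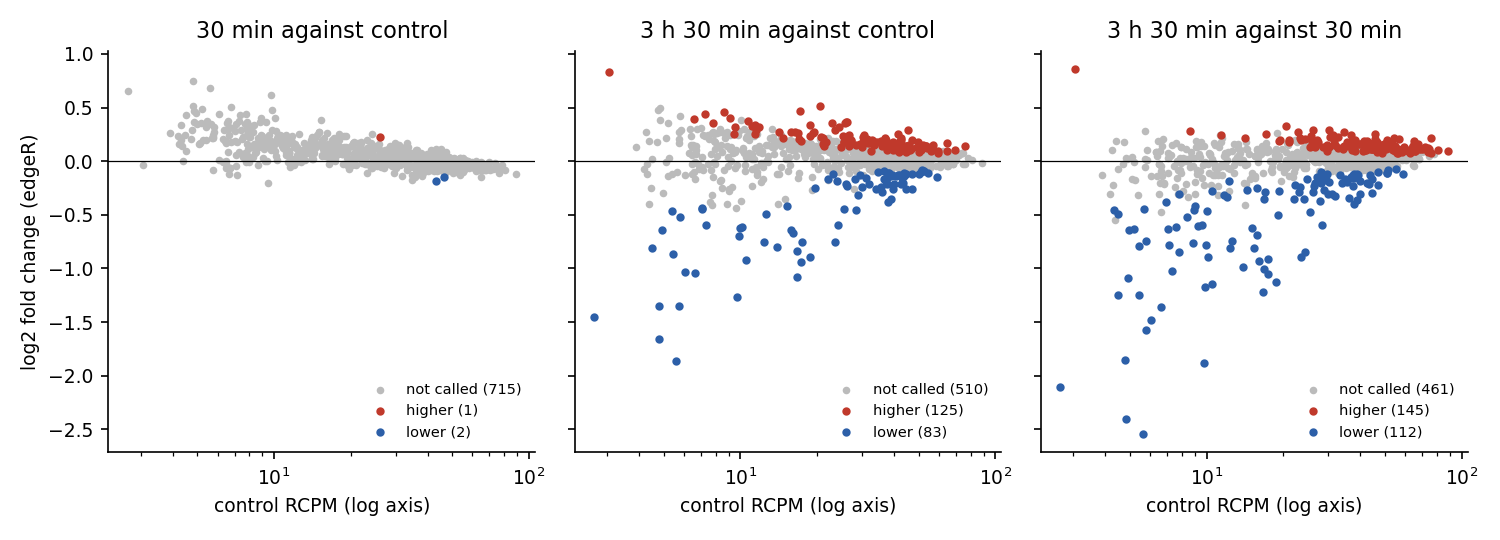
Log2 fold change of the 718 isolated peaks (edgeR) against their mean control RCPM on a log axis, for the 3 comparisons; red points were called higher, blue points lower and grey points not called. Falls at 3 h 30 min reach below -1 among peaks under 20 RCPM, while the called rises stay under 1.

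The largest rise at 3 h 30 min was that of Peak_3870 on chromosome 15, which lies 1303536 bp from the nearest peak and was among the lowest in control. It had 6.86, 8.54 and 5.19 CPM in control, 7.15, 5.56 and 7.40 CPM at 30 min and 9.70, 14.0 and 12.9 CPM at 3 h 30 min. The first 2 conditions overlapped and the third lay above both. In the fit, it changed by a log2 fold of 0.83 against control (SE 0.18, edgeR adjusted p = 0.00528) and 0.86 against 30 min (SE 0.18, edgeR adjusted p = 0.00269). Its ChIP reads were only 6.23 times those of the input, and a fit with terms for input gave -0.44 and -0.64 for these comparisons (edgeR adjusted p = 0.887 and 0.766).

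Peak_11440 (chr3:29402675-29403618) was higher at 3 h 30 min, with 18.9, 20.2 and 19.2 CPM in control, 22.0, 21.1 and 23.1 CPM at 30 min and 27.4, 27.2 and 28.7 CPM at 3 h 30 min. Its log2 fold change was 0.51 at 3 h 30 min against control (SE 0.06, edgeR adjusted p = 0.000247), and no library of one condition reached into the next. The first step, from control to 30 min, was 0.18 and did not pass (edgeR adjusted p = 0.144). With terms for input it was 0.24, and the difference between the washout times was -0.21 in place of 0.33. Peak_1875 (chr1:200695502-200697300) had 30.8, 29.9 and 32.2 CPM in control, 33.8, 34.9 and 39.5 CPM at 30 min and 38.1, 44.0 and 46.7 CPM at 3 h 30 min. Its washout times overlapped, and the log2 fold change from control to 3 h 30 min was 0.47 (SE 0.08, edgeR adjusted p = 0.00115).

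The largest falls at 3 h 30 min came at peaks with very little H3K4me3 in control. Peak_10003 (chr17:69634826-69635824) had 5.99, 5.07 and 5.81 CPM in control, 11.5, 7.85 and 7.52 CPM at 30 min and 1.03, 1.58 and 2.04 CPM at 3 h 30 min. It was higher at 30 min than in every control library and lowest 3 h later, with a log2 fold change of -1.87 against control (SE 0.26, edgeR adjusted p = 0.000433) and -2.54 against 30 min (SE 0.24, edgeR adjusted p = 2.06e-05), on 16, 23 and 29 reads per library at 3 h 30 min.

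Peak_16123 (chr13:32447980-32448691), 1802082 bp from its nearest peak, had 3.65, 2.50 and 4.15 CPM in control, 7.03, 5.03 and 5.22 CPM at 30 min and 0.899, 1.24 and 1.12 CPM at 3 h 30 min. Its log2 fold change was -1.66 against control (SE 0.27, edgeR adjusted p = 0.00113) and -2.41 against 30 min (SE 0.25, edgeR adjusted p = 3.59e-05). Peak_14114 on chromosome 8, the lowest of all isolated peaks in control, had 2.04, 2.15 and 2.49 CPM in control, 3.81, 2.94 and 3.79 CPM at 30 min and 1.28, 0.482 and 0.632 CPM at 3 h 30 min. Its log2 fold change was -1.45 against control (SE 0.31, edgeR adjusted p = 0.00456) and -2.11 against 30 min (SE 0.28, edgeR adjusted p = 0.000181). In all of these falling peaks the 30 min libraries lay above the control libraries and the 3 h 30 min libraries below them. The rise at 30 min passed the threshold for none of them, with edgeR adjusted p-values of 0.0944, 0.0838 and 0.143.

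**Figure D4:**
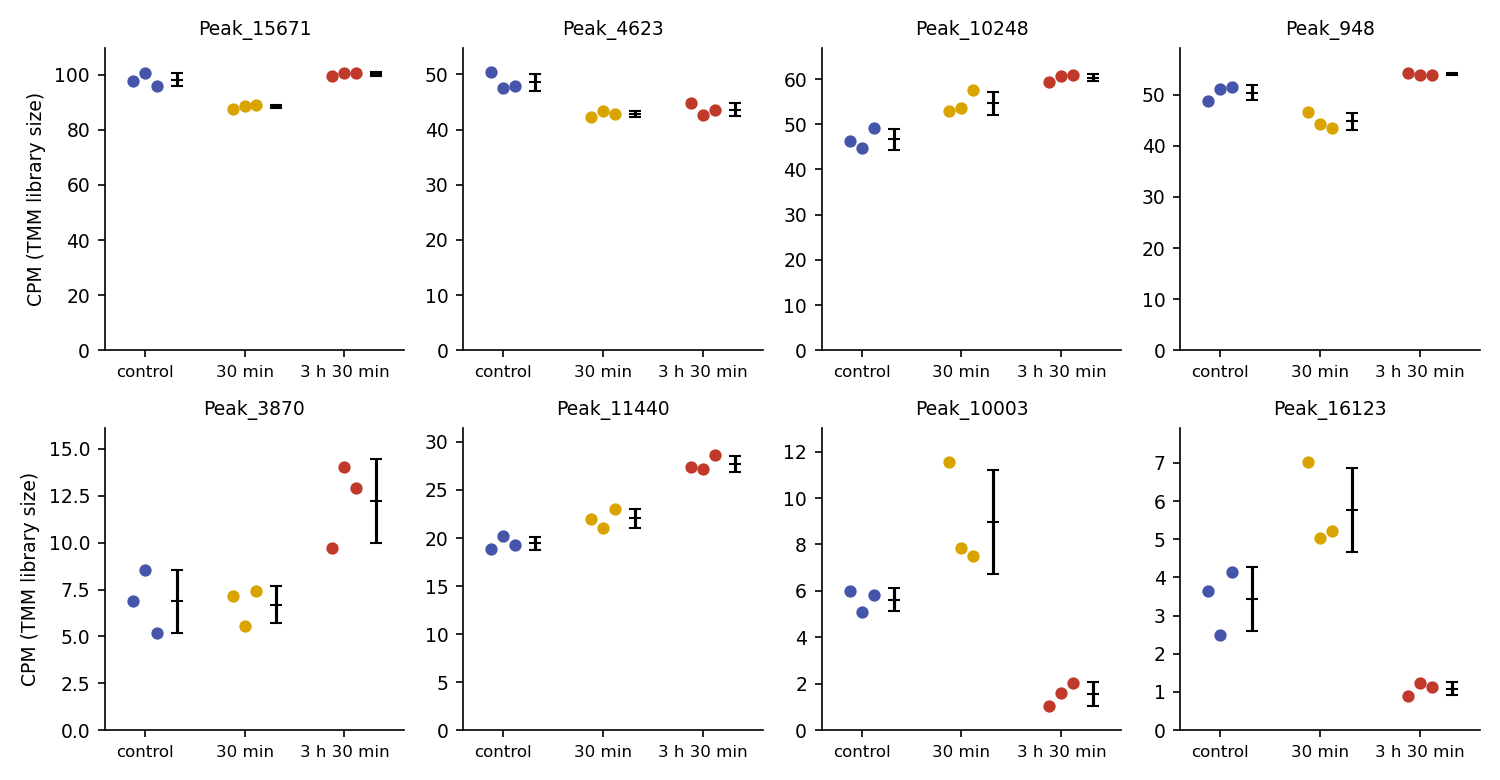
CPM (counts on TMM-scaled library sizes, y axes from 0) of 8 isolated peaks in the 9 ChIP libraries by condition (points), with mean and SD of 3 libraries (black). The upper row has the peaks called at 30 min and the Fpgt and Lrriq3 peak, Peak_948; the lower row has 2 peaks that were higher and 2 that were lower at 3 h 30 min.

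Between the washout times, 145 isolated peaks (20.2%) rose from 30 min to 3 h 30 min and 112 (15.6%) fell, where the calls over all peaks were 17.9% higher and 23.3% lower. Among neighboured peaks they were 18.9% higher and 21.3% lower. The median log2 fold change was 0.03 over isolated peaks and 0.00 over all peaks. Of the lower peaks 18 changed by more than 2-fold, and of the higher peaks 0. Over all 16364 peaks, 424 called falls and 1 called rise were beyond 2-fold, so this imbalance was not particular to isolated peaks. The counts were 86 higher and 84 lower without 30 min replicate 1, and 91 and 95 without 3 h 30 min replicate 3. With all reads as library size they were 380 higher and 57 lower. For these fits the counts over all peaks are not given. This comparison shares its 30 min libraries with the first one and its 3 h 30 min libraries with the second.

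Here the level divided the peaks most. In the lowest quartile of isolated peaks 3 of 180 were higher and 42 lower, in the second 22 and 29 of 179, in the third 42 and 30 of 179, and in the highest 78 and 11 of 180. The median control level was 44.6 RCPM for the peaks called higher and 18.9 RCPM for those called lower. The same direction was seen in neighboured peaks within the same bounds, where 3.69% were higher and 33.4% lower in the lowest class, against 1.67% and 23.3% of isolated peaks. In the highest class 37.8% of neighboured and 43.3% of isolated peaks were higher.

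**Figure D5:**
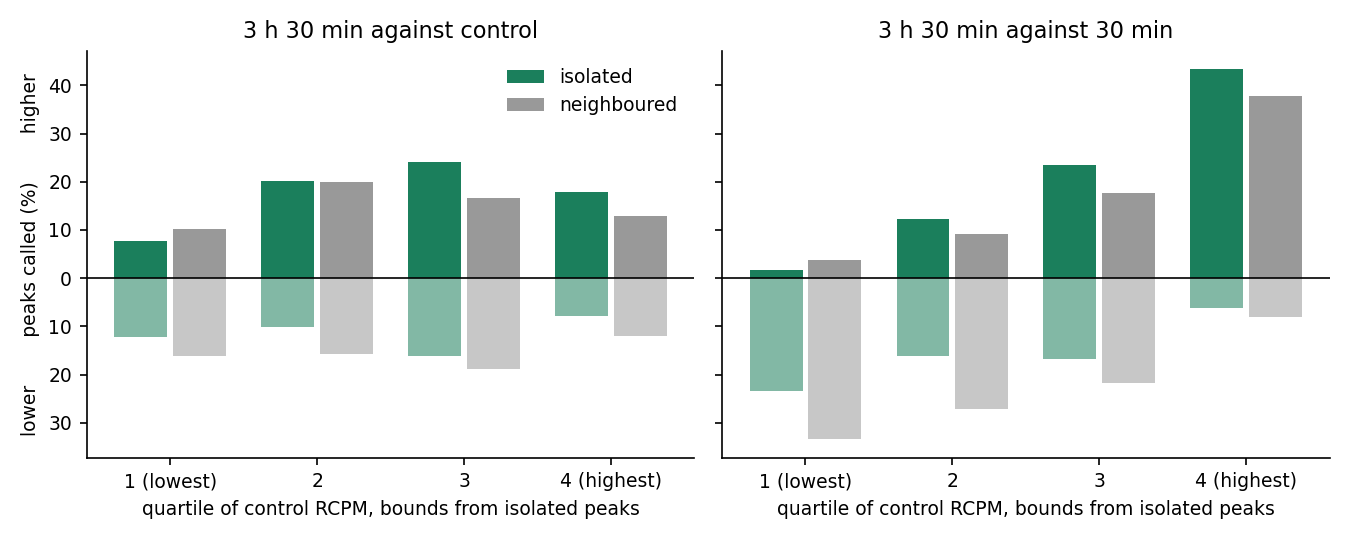
Percent of isolated (green) and neighboured (grey) peaks called higher (above 0) or lower (below 0, paler) at 3 h 30 min, by quartile of control RCPM with bounds taken from the isolated peaks. Left, against control; right, against 30 min, where the share of higher peaks climbs from 1.67% to 43.3% of isolated peaks from the lowest to the highest quartile.

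Peak_15233 (chr10:58333181-58334672) was among the 3 largest rises between the washout times, after Peak_3870 and Peak_11440. It had 36.5, 39.2 and 41.6 CPM in control, 40.3, 40.1 and 42.8 CPM at 30 min and 44.7, 51.8 and 55.1 CPM at 3 h 30 min. Its control and 30 min libraries overlapped, and the log2 fold change from 30 min to 3 h 30 min was 0.30 (SE 0.07, edgeR adjusted p = 0.00466). The peaks with the highest H3K4me3 moved little in comparison. Peak_12071 and Peak_8412 each gained 0.10 on the log2 scale between the washout times (SE 0.04 and 0.03, edgeR adjusted p = 0.0384 and 0.0164), and Peak_13577 was 0.06 higher without passing the threshold (adjusted p = 0.067).

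Replicates of an isolated peak lay close together. The median coefficient of variation of a peak's CPM over 3 libraries was 2.96% in control, 4.23% at 30 min after washout and 4.97% at 3 h 30 min for isolated peaks, against 2.49%, 3.06% and 4.26% for neighboured ones. edgeR's biological coefficient of variation, the spread beyond counting error, was 5.03% over isolated and 3.91% over neighboured peaks at 3 h 30 min. At 30 min it was 2.99% over isolated peaks and 0.988% over neighboured ones. In control the fit returned this same 0.988% for both sets, so it is read as the lowest value that the fit gives. The size of the 30 min difference is therefore not known. With 717 of 718 peaks at 10 reads or more in every ChIP library and a minimum of 7 reads, counting error was largest for the falling peaks named above.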

How the data were processed

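H3K4me3 ChIP and genomic input libraries of primary rat Schwann cells were single-read 75 bp libraries. After alignment to Rnor_6.0, the authors discarded duplicates and reads that mapped to several places, merged the MACS2 peaks of the conditions and took HTSeq-count values for each merged peak. These deposited counts are raw and were not normalized. Duplicate removal limits the count at densely covered peaks.

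Peak gaps, shares of reads and RCPM were computed from the combined table, which equals the 18 single tables (0 values differ). Lines for reads outside peaks were left out of library sizes. Peaks were tested with edgeR 4.0.16 (quasi-likelihood, TMM, filterByExpr, 9 ChIP libraries, Benjamini-Hochberg over 16364 peaks) in R 4.3.3. Single values were compared by exact permutation tests over libraries. The fold over input used a pseudocount of 1 read. The edgeR step was run on simulated data with the same spread in every condition. The spread here differed between conditions, so that run does not vouch for these calls. Alternatives were DESeq2 1.42.0, other library sizes, loess offsets, filters, blocks, thresholds, gap limits and libraries left out.

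Named peaks were the 3 largest called rises and falls of each comparison whose libraries did not overlap, the 3 highest, 3 lowest and 3 most isolated peaks and 2 on each side of the gap limit. Peak_948 was added after its values were seen. Genes were matched to peaks by values, not by position. The members, the lists and the tests were chosen with earlier results of these data known. Promoter windows came from RefSeq on GRCr8. No marker genes could be read without an annotation of Rnor_6.0, so the cell type was not checked here. Sequences at the other peaks were not analysed here.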

Additional observations from a re-analysis of the deposited data

How the results depend on the processing

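For 30 min against control, the count of isolated peaks called higher was 1, and it was 2 without TMM, 0 with DESeq2, 40 with only the compared conditions, 3 with the replicate number as a block, 0 with terms for input and 0 at an adjusted p under 0.01. The count called lower was 2, and it was 36 with only the compared conditions, 0 with terms for input and 0 at an adjusted p under 0.01. Leaving out 1 library gave 0 to 26 higher and 0 to 25 lower. Among peaks with gaps over 500000 bp the shares were 0% and 0.98%.

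For 3 h 30 min against control, DESeq2 called 76 higher and 55 lower, or 131 isolated peaks against 3387 of all 16364. All reads as library size gave 163 and 44, terms for input 0 and 0, and an adjusted p under 0.01 left 44 and 42. Leaving out 1 library gave 53 to 210 higher and 48 to 102 lower. For 3 h 30 min against 30 min, DESeq2 called 92 higher and 90 lower, or 182 isolated peaks against 4691 of all 16364. All reads as library size gave 380 and 57, and terms for input 0 and 0. An adjusted p under 0.01 left 64 higher and 80 lower, so falls outnumbered rises there. Leaving out 1 library gave 86 to 200 higher and 84 to 124 lower. The cause of these shifts was not tested. Counts over all peaks are not given for the alternatives other than DESeq2 and terms for input. The shifts are therefore not read as particular to isolated peaks. The stricter threshold lowers counts by its construction. The fit with terms for input called 0 of all 16364 peaks in each of the 3 comparisons, so its 0 is not a result about isolated peaks.

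The replicate numbers did not clearly pair the libraries. Deviations from the condition means correlated at -0.206 to 0.339 between libraries of the same number, and 4 of 9 were over 0.1. Between libraries of different numbers the correlations ran from -0.256 to 0.341. These values do not decide whether the libraries were paired. With the replicate number as a block, 148 isolated peaks were higher and 90 lower at 3 h 30 min against control, and 153 and 115 against 30 min.

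With all reads as library size, the share of isolated peaks moved by -0.148 percentage points and their median by -0.492 RCPM between control and 30 min, in place of 0.0356 and 1.24. Leaving out 1 library kept every difference in share (0.00966 to 0.141) and in the median (0.262 to 1.87 RCPM) above 0. The mean fold over input of 50.2 became 0.927 when reads in peaks were the library size, as that scaling sets the mean over all peaks near 1.

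With terms for input the log2 fold change turned over for Peak_15671 at 30 min (0.07), for Peak_3870 at 3 h 30 min (-0.44 against control, -0.64 against 30 min), for Peak_11440 against 30 min (-0.21) and for Peak_948 at 3 h 30 min (-0.45 against control, -0.14 against 30 min). The input held 97 to 152 reads over 9 libraries at these peaks, so these values are imprecise.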

Other observations

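The X chromosome, which the rule left out, held 60 peaks of the same width and isolation among its 390 mid-width peaks. Their median control level was 23.4 RCPM, against 27.9 RCPM for the 718 isolated peaks. At 3 h 30 min against control 17 of them were higher and 8 lower by edgeR's test, with a median log2 fold change of 0.08, and at 30 min 1 was higher and 0 lower. Over all 16364 peaks, 13.7% were higher and 17.8% lower at 3 h 30 min, and 0.532% and 0.281% at 30 min. Other peaks of the X chromosome were not counted here.

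Isolated peaks of other widths on chromosomes 1 to 20 showed other splits. Of 102 isolated peaks narrower than 700 bp, with a median control level of 8.68 RCPM, 4 were higher and 18 lower at 3 h 30 min against control, and 3 higher and 28 lower against 30 min. Of 150 isolated peaks of 2500 bp or more, with a median of 42.8 RCPM, 28 were higher and 30 lower against control. Over all peaks, 13.7% were higher and 17.8% lower against control, and 17.9% and 23.3% against 30 min. Neighboured mid-width peaks of the lowest level class were also more often lower (16.1%) than higher (10.3%) against control. No difference between these sets was tested. Whether the splits go with width, level or isolation was not tested either.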
